A study of Mus musculus with 4 samples.

Results

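Nuclear and stem cell noncoding RNAs were followed in mouse embryonic stem cells after transient knockdown of Kdm5b, an enzyme that takes methyl groups off histone H3 at lysine 4. The group held 6 genes of the 23697 loci in the deposited table: Platr14, Zbtb11os1, Malat1, Neat1, Tug1 and Terc. They were found by their RefSeq identifiers, and each had 1 row. Platr14 and Zbtb11os1 were chosen because they were higher in knockdown in these same libraries, so their group difference is described without a test. The other 4 were not chosen for that difference. RefSeq types 5 of the 6 as long noncoding RNA and Terc as telomerase RNA.

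The cells were of the WW6 line, of mixed C57/B6J, 129/Sv and SJL background, grown without feeder cells in 10% serum with leukemia inhibitory factor. In the knockdown group cells received small interfering RNA against Kdm5b, and in the control group against GFP, 24 hours after seeding. Each group had 2 libraries, labelled A and B, made from total RNA depleted of ribosomal RNA, so that RNAs without a poly(A) tail could enter the libraries. The treatment labels speak of a targeting and a mock construct, and the protocol of small interfering RNA. Whether A and B came from separate cultures is not in the labels, so p-values here reflect no more than library-to-library spread, and that spread may be technical.

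Long noncoding RNAs are transcribed and often spliced like messenger RNA but are not translated into known proteins, and several act in the nucleus. Malat1 lies in nuclear speckles, bodies rich in splicing factors, and Neat1 is the scaffold of paraspeckles, bodies built around Nono, Sfpq and Pspc1. Tug1 is a widely expressed transcript from a start shared head to head with Morc2a. Terc is the RNA that telomerase copies into telomere repeats. Platr transcripts are noncoding RNAs named for their association with the pluripotent state, and Zbtb11os1 is the opposite-strand transcript of Zbtb11, a zinc finger gene.

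The sequences below show what sets these RNAs apart, taken from GENCODE M21 transcripts (GRCm38) and written as DNA letters 5′ to 3′. Capitals in Terc, on chromosome 3, mark the letters CCTAACCCT at bases 28 to 36 of the 423-base transcript, the complement of the telomere repeat. Capitals in Malat1 and in the long Neat1 transcript, both on chromosome 19, mark exact matches to the U-rich and A-rich tracts that pair into a triple helix at a 3′ end without a poly(A) tail. The Malat1 stretch is bases 6598 to 6699 of 6983. The Neat1 stretch is the last 110 bases of the 20771-base transcript.
Terc: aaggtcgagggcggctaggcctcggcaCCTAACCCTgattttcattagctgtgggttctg
Malat1: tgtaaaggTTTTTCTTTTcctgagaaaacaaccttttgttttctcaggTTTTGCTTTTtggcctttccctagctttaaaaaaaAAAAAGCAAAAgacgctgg
Neat1 long: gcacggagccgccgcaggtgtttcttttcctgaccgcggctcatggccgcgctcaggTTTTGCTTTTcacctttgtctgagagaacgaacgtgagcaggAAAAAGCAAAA

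The row for Neat1 was built on the short transcript alone (NR_003513). Its mm9 interval, chromosome 19 from 5842301 to 5845478, covers 3177 bp, and in the GRCm38 annotation the short transcript spans 15.3% of the long one, at their shared 5′ end. Its values therefore pool fragments of both transcripts over that stretch, and the long transcript, which is the one that assembles paraspeckles, was not measured apart. Malat1 (NR_002847) lay on chromosome 19 from 5795689 to 5802671 in mm9, 39630 bp from Neat1. No other locus with a gene symbol lay between them. Tug1 (NR_002321 and NR_002322) lay on chromosome 11 from 3539796 to 3548811, Terc (NR_001579) on chromosome 3 from 96218359 to 96218756, and Platr14 (NR_040322 and NR_040323) on chromosome 2 from 104399340 to 104411586. In the annotation 5 of the 6 genes were on the minus strand, and Platr14 was on the plus strand.

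Promoters of the pair chosen for being higher in knockdown are shown because these RNAs were high in the same libraries. Each is a window of 300 bases over a transcription start, most of it upstream, credited to RefSeq (GRCm38.p6), with CG dinucleotides in capitals. The Platr14 window is chr2:104559209-104559508 on the plus strand, and the Zbtb11os1 window is chr16:55974568-55974867 on the minus strand. The Platr14 window covers the start of its 707-base transcript, at 104559459. Its 582-base transcript starts at 104559184, before the window, so the promoter of that transcript is not shown. Promoters were listed for 4 of the 6 genes: Malat1, Platr14, Tug1 and Zbtb11os1.
Platr14: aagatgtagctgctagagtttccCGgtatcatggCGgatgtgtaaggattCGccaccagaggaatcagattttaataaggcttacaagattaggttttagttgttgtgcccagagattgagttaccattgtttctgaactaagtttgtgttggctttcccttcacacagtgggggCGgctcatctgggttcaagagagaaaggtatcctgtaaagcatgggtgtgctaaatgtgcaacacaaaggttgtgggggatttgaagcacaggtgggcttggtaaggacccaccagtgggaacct
Zbtb11os1: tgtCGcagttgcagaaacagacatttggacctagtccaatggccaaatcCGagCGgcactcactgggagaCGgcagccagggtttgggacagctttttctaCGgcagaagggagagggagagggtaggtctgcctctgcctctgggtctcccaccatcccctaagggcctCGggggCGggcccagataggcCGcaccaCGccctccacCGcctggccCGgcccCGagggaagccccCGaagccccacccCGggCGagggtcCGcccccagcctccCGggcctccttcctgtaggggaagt

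The windows, each over a single start of its gene, differed in base composition. Platr14 held 4 CG dinucleotides and 46.7% G and C, and 68.6% of 32841 mouse promoters held at least as many CG. Zbtb11os1 held 17 CG dinucleotides and 67% G and C, and 31.4% of promoters held at least as many; the median promoter held 7. Tug1 held 37, reached by 5.58% of promoters, and Malat1 held 10, reached by 43.5%. The letters GCACA or GCACC, reported as the target of the DNA-binding domain of human KDM5B, were searched on both strands. Platr14 held GCACA 4 times, Malat1 held it 1 time and Zbtb11os1 held GCACC 1 time, while Tug1 held neither. At least 1 match to either was in 69.1% of all promoters, to GCACA in 45.9% and to GCACC in 43.4%; the share with 4 or more was not computed. The TATA box letters TATAAA, on either strand, were in none of these 4 windows and in 13.6% of all promoters.

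Levels are in FPKM, which divides the fragments of a locus by its transcript length and by the depth of the library, and so compares genes per length. A mean of 1 FPKM or more was required for testing, which 11784 of the 23697 loci met, all 6 genes among them, and none of the 6 stood at 0 in any library. Steps between low values gave estimated depths, relative to control B, of 76.1% in knockdown A, 98.1% in knockdown B and 101% in control A; knockdown A listed 11953 loci at 0, against 8131 to 8609 in the other 3 libraries. Kdm5b itself had 22.7 and 31.1 FPKM in the knockdown libraries, against 99.7 and 145 FPKM in the controls. Its mean in knockdown was 22% of that in control (log2 fold change -2.14, standard error (SE) 0.30, limma adjusted p = 0.562). All 10 stem cell markers looked for, Pou5f1, Nanog and Sox2 among them, were tested loci. Their summed level was 4725 and 4001 FPKM in knockdown A and B, and 3628 and 4383 FPKM in control A and B.

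Malat1 was the most abundant of the 6. It stood at 894 FPKM in knockdown A and 1281 FPKM in knockdown B, against 1717 FPKM in control A and 887 FPKM in control B. Control A was the high library, the other 3 lay closer together, and the groups overlapped. The mean was 1088 ± 273 FPKM in knockdown and 1302 ± 586 FPKM in control (SD, n = 2 each), and 98.8% of tested loci had a lower mean over all libraries.

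Terc came next and varied least of the 4 not chosen on the contrast. It had 444 and 519 FPKM in knockdown A and B, against 509 and 421 FPKM in control A and B. The order of the libraries crossed the groups, with knockdown B highest and control B lowest. Means were 481 ± 53.1 FPKM in knockdown and 465 ± 62.4 FPKM in control (SD, n = 2 each). Its interval of 397 bp is close to the 300 bp to which the copied RNA was sheared, a size at which FPKM rests on the length correction of the authors' software.

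Neat1 spread most. It had 24.7 and 44.7 FPKM in knockdown A and B, against 82.1 and 21.2 FPKM in control A and B, so the highest and the lowest values were both controls. Means were 34.7 ± 14.2 FPKM in knockdown and 51.6 ± 43.1 FPKM in control (SD, n = 2 each). Tug1 had 33.4 and 44.8 FPKM in knockdown A and B, and 57.3 and 41.1 FPKM in control A and B. Knockdown A was its lowest library, and the groups overlapped, at 39.1 ± 8.11 FPKM in knockdown and 49.2 ± 11.4 FPKM in control (SD, n = 2 each).

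Platr14 had 48.9 and 61.8 FPKM in knockdown A and B, against 26.0 and 26.9 FPKM in control A and B. Both knockdown libraries lay above both controls, as the choice of the gene implies; 15% of tested loci had this order. Its mean was 55.4 ± 9.17 FPKM in knockdown and 26.4 ± 0.63 FPKM in control (SD, n = 2 each), 2.09 times as high. The transcripts behind the row are short, at 582 and 707 bases, and spliced from 4 and 2 exons. At those lengths the levels stand for an estimated 61.2 to 81.3 fragments in knockdown A and 99.9 to 133 in knockdown B, against 43.3 to 57.4 in control A and 44.2 to 58.7 in control B.

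Zbtb11os1, the scarcest of the 6, had 12.3 and 9.45 FPKM in knockdown A and B, against 2.32 and 2.98 FPKM in control A and B. Again both knockdown libraries lay above both controls. The mean was 10.9 ± 2.04 FPKM in knockdown and 2.65 ± 0.47 FPKM in control (SD, n = 2 each), 4.11 times as high. It is a single exon of 1350 bases. Its levels stand for an estimated 46.5 and 46 fragments in knockdown A and B, and 11.6 and 14.8 in control A and B, so the control values rest on few fragments.

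**Figure D1:**
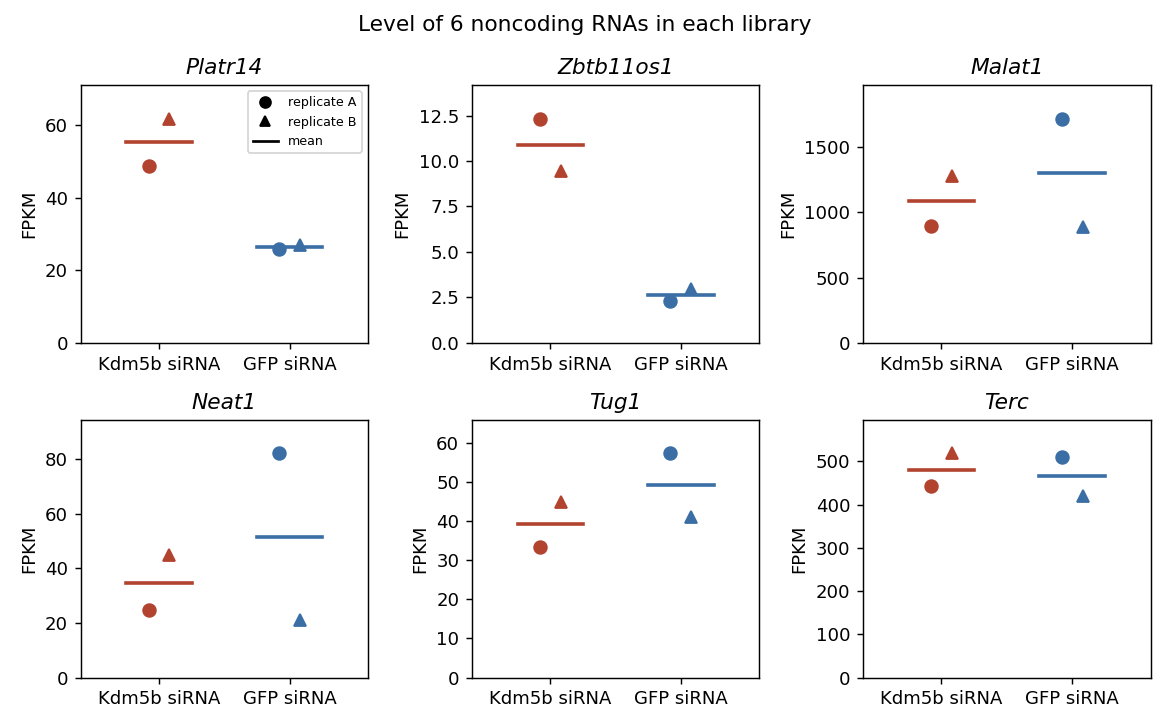
FPKM (vertical axes, from 0, scaled per gene) of each noncoding RNA in cells given Kdm5b siRNA (left) and GFP siRNA (right); circles are replicate A, triangles replicate B and bars the mean of 2 libraries. Platr14 and Zbtb11os1 have both knockdown libraries above both controls, and for Neat1 the controls, at 82.1 and 21.2 FPKM, enclose the knockdown libraries.

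By mean level in the controls the order was Malat1, Terc, Neat1, Tug1, Platr14 and Zbtb11os1. Malat1 and Terc were apart from their neighbours in that order in all 4 libraries, the lowest Malat1 value of 887 FPKM standing over the highest Terc value of 519 FPKM. Neat1, Tug1 and Platr14 were not separated: Neat1 exceeded Tug1 in 1 of 4 libraries, and their ranges overlapped. Tug1 lay under Platr14 in both knockdown libraries and over it in both controls. Zbtb11os1 lay under Platr14 in all 4.

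The comparison of knockdown with control was made with limma on log2(FPKM + 1), fitted over the 11784 loci. None of the 4 genes not chosen on the contrast passed a limma adjusted p of 0.05 (0 of 4), and 0 of 4 had an unadjusted limma p under 0.05. None had groups that did not overlap (0 of 4), an order seen in 31.9% of tested loci. Over all tested loci the limma adjusted p gave 4 lower loci (0.0339%) and 0 higher loci (0%). At an unadjusted limma p under 0.05 there were 176 lower (1.49%) and 114 higher (0.967%). The log2 fold changes were -0.21 for Malat1 (SE 0.37, limma adjusted p = 0.940), -0.32 for Neat1 (0.64, limma adjusted p = 0.945), -0.32 for Tug1 (0.29, limma adjusted p = 0.918) and 0.050 for Terc (0.22, limma adjusted p = 0.979).

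The 95% intervals of these changes were wide. They ran from -1.11 to 0.70 for Malat1, from -1.89 to 1.24 for Neat1, from -1.03 to 0.39 for Tug1 and from -0.49 to 0.59 for Terc. A change of 2-fold in either direction lay outside the interval of Terc, while a fall of 2-fold lay inside those of Malat1, Neat1 and Tug1, and a rise of 2-fold inside that of Neat1. The sign of Malat1, Neat1 and Terc depended on single libraries: without control A the values were 0.27 for Malat1 and 0.63 for Neat1, and without control B they were -0.68 and -1.28. Without knockdown A they were 0.053 and 0.091. Terc stood at -0.087 without control B and -0.062 without knockdown B. Tug1 kept its sign, at -0.085 without control A and -0.11 without knockdown A, against -0.55 and -0.53 without control B and knockdown B.

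On the same log2 scale the difference that chose Platr14 was 1.03 and that which chose Zbtb11os1 was 1.70. Of all tested loci, 15% had both knockdown libraries above both controls and 16.9% had both below. With a difference of at least 1 log2 unit as well, 1.37% were above (162 loci) and 3.9% below (459 loci); after quantile normalization 233 were above and 266 below.

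**Figure D2:**
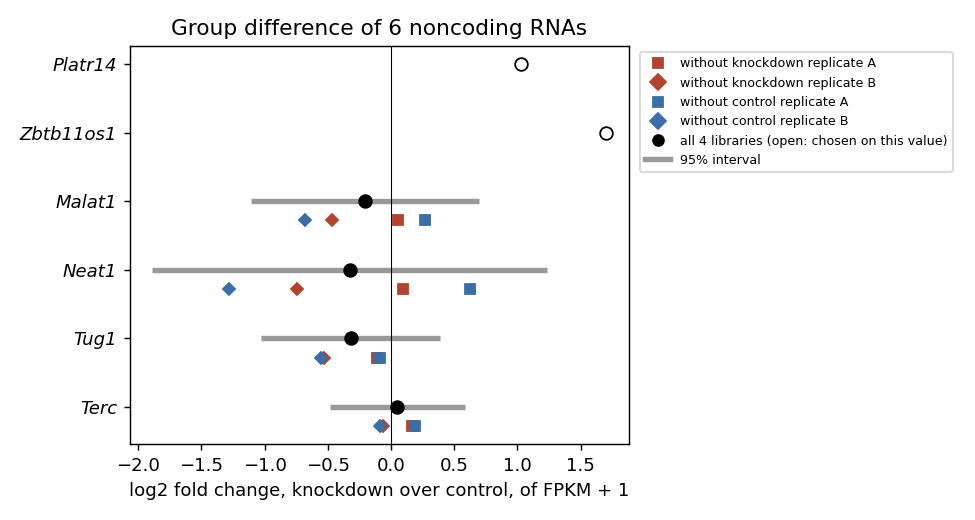
Log2 fold change, knockdown over control, of FPKM + 1 for the 6 genes with all 4 libraries (circles; open for the 2 genes chosen on this value), the 95% interval for the other 4 (bars), and the value of those 4 with 1 library left out (squares and diamonds below). Malat1, Neat1 and Terc change sign with the library left out, and Tug1 stays between -0.55 and -0.085.

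Long noncoding RNAs as a class were then counted. Of 268 other tested loci of that type, 0 passed limma, with 9 higher (3.36%) and 8 lower (2.99%) at an unadjusted limma p under 0.05, against 0.967% and 1.49% of all tested loci. Both knockdown libraries lay above both controls in 41 (15.3%) and below in 51 (19.03%), against 15% and 16.9% of all tested loci. With a difference of at least 1 log2 unit as well, 19 (7.09%) were above and 38 (14.2%) below, against 1.37% and 3.9% of all tested loci. Their median log2 fold change was -0.075, against -0.029 over all tested loci. Their median level was 2.61 FPKM, against 12.3 FPKM over all tested loci, and its part in these shares was not tested.

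For Malat1, Neat1, Tug1 and Terc the gap between the controls exceeded the difference between the group means. On the log2(FPKM + 1) scale control A exceeded control B by 1.91 for Neat1, and 0.687% of tested loci had as large an excess. The excess was 0.95 for Malat1, reached by 5.69% of loci, 0.47 for Tug1, reached by 19.2%, and 0.27 for Terc, reached by 30.3%. Of these 4 genes 3 were highest in control A, as were 29.7% of all tested loci. In the knockdown libraries the same 4 were lower in A than in B, by 0.83 for Neat1, 0.52 for Malat1, 0.42 for Tug1 and 0.23 for Terc. Gaps of at least that size in that direction were seen in 17.5%, 25.6%, 29.5% and 39.2% of tested loci. Malat1 and Neat1 put the 4 libraries in the same order but not in proportion: the ratio of their levels was 36.2 in knockdown A and 28.7 in knockdown B, against 20.9 in control A and 41.9 in control B.

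For Platr14 and Zbtb11os1, whose choice favoured groups that do not overlap, gaps were compared without regard to direction. Control A was under control B by 0.047 for Platr14 and by 0.26 for Zbtb11os1, and 91.9% and 58.2% of tested loci had gaps at least as large. Knockdown A was under knockdown B by 0.33 for Platr14 and over it by 0.35 for Zbtb11os1, and 60.1% and 58.4% of tested loci had gaps at least as large. Knockdown A, the library of lowest estimated depth, had a lower value than knockdown B in 5 of the 6 genes and a higher one in Zbtb11os1. The share of all tested loci that were lower in knockdown A was not computed, and the part of depth in these differences was not tested.

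**Figure D3:**
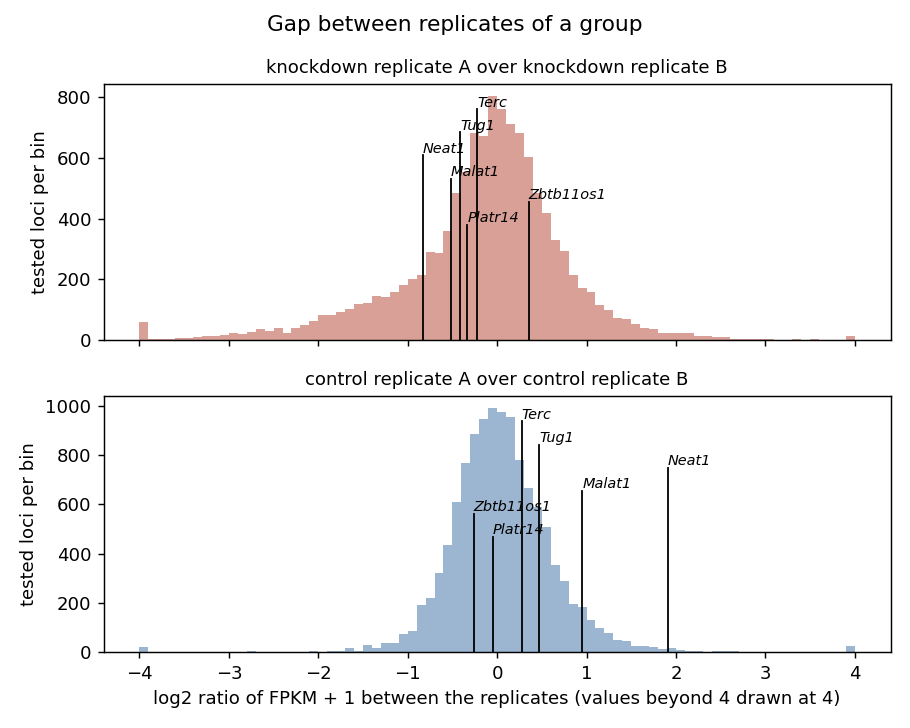
Histograms, in bins of 0.1, of the log2 ratio of FPKM + 1 between replicates over 11784 tested loci, knockdown A over B above and control A over B below, with the 6 genes as vertical lines whose height has no meaning. Neat1 at 1.91 and Malat1 at 0.95 lie in the upper tail between the controls, where 0.687% and 5.69% of loci reach as far.

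Loci around the 6 genes were then read to see whether a difference extended beyond the noncoding RNA. Zbtb11os1 and Zbtb11 carry the same interval in the table, mm9 chromosome 16 from 55973380 to 56009025. In the GRCm38 annotation the whole first exon of Zbtb11, 489 bases on the plus strand, lies inside Zbtb11os1 on the minus strand. This is 36.2% of the Zbtb11os1 exon and 9.94% of the Zbtb11 transcript. The libraries were strand-marked, but the sources used here do not give whether counting used strand, so reads over that stretch cannot be assigned with certainty to either gene.

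Zbtb11 had 14.8 and 7.73 FPKM in knockdown A and B, against 9.11 and 11.3 FPKM in control A and B. Its groups overlapped, with knockdown A highest and knockdown B lowest, and the log2 fold change was 0.075 (SE 0.39, limma adjusted p = 0.981), turning to -0.066 without control A and -0.35 without knockdown A. The level of Zbtb11os1 was 0.83 and 1.22 times that of Zbtb11 in knockdown A and B, and 0.25 and 0.26 times in control A and B. The ratio carries the choice of Zbtb11os1 for being higher in knockdown, and is a description only. Rpl24, a ribosomal protein gene 1830 bp before the shared interval, had a log2 fold change of -0.64 (SE 0.39), and Pcnp, 6595 bp after it, one of 0.020 (0.29), which turned to -0.057 without control B and -0.12 without knockdown A.

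Of loci with a gene symbol, neither neighbour of Platr14 had groups that stood apart. Cstf3, a subunit of the cleavage stimulation factor of messenger RNA 3′ ends, 19054 bp after it, had 13.6 and 24.3 FPKM in knockdown A and B, against 28.2 and 19.3 FPKM in control A and B. Its log2 fold change was -0.34 (SE 0.37), and 0.057 without knockdown A. Platr14 was at 3.59 and 2.54 times the level of Cstf3 in knockdown A and B, and at 0.92 and 1.39 times in control A and B. Platr14 was chosen for being higher in knockdown, so this ratio carries that choice and is a description only. Hipk3, a nuclear kinase gene 64694 bp before Platr14, had a log2 fold change of -0.31 (SE 0.40). Neither passed limma, with adjusted p-values of 0.918 for Cstf3 and 0.925 for Hipk3.

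Morc2a, a chromatin gene whose interval begins 685 bp after that of Tug1, had 25.7 and 26.3 FPKM in knockdown A and B, against 20.4 and 18.2 FPKM in control A and B. Both knockdown libraries lay above both controls, unlike Tug1, with a log2 fold change of 0.42 (SE 0.26, limma adjusted p = 0.918). Frmd8, 5495 bp after Neat1, had a log2 fold change of 0.19 (SE 0.26) and did not pass limma. The loci with a gene symbol next to Terc, Fcgr1 and BC107364, were under the level tested and were listed at 0 in both knockdown libraries.

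**Figure D4:**
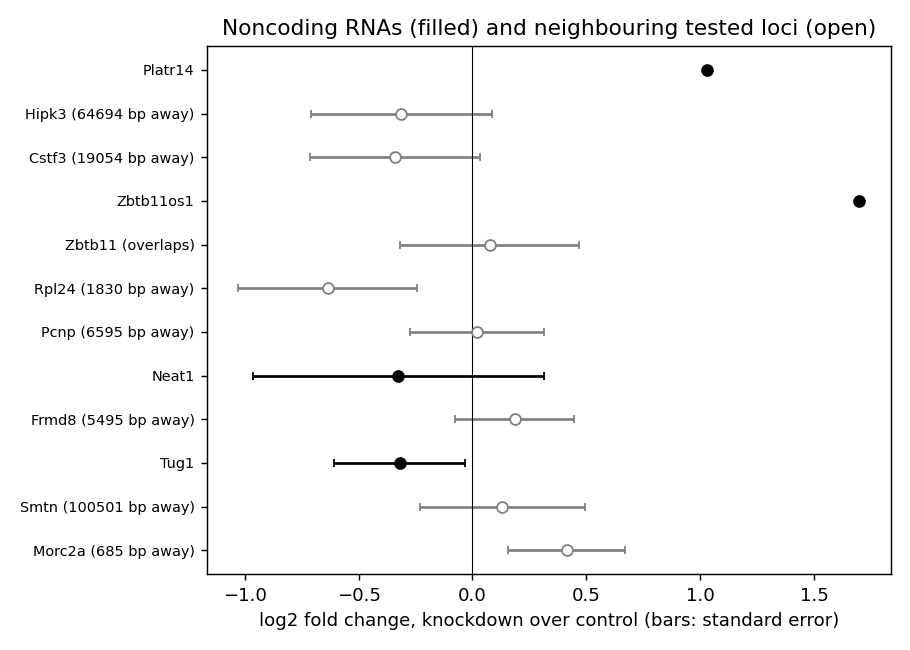
Log2 fold change, knockdown over control, of 4 noncoding RNAs (filled) and of neighbouring tested loci (open, with their distance in bp in the deposited mm9 intervals); bars are standard errors, left out for the 2 genes chosen on this value. Zbtb11, which overlaps Zbtb11os1, stands at 0.075 against 1.70, and Cstf3 at -0.34 beside Platr14 at 1.03.

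A wider list of genes near the 6 loci had 26 of 27 names in the table. It included 5 genes that in mouse are at least 65552263 bp from Terc. The other 21 lay within 300 kb of Malat1, Neat1, Tug1 or Zbtb11os1, and 15 of them were tested, with a median log2 fold change of -0.065. None passed limma (0 of 15, and 0 at an unadjusted p under 0.05), with both knockdown libraries above both controls in 3 (20%) and below in 4 (26.7%), against 15% and 16.9% of all tested loci. The largest differences were in Map3k11, a kinase gene, and Fam89b, both on chromosome 19. Map3k11 had 0.08 and 5.61 FPKM in knockdown A and B, against 7.16 and 6.04 FPKM in control A and B. Fam89b had 1.55 and 7.98 FPKM in knockdown A and B, against 10.7 and 9.85 FPKM in control A and B. In both the low value was knockdown A, and the log2 fold changes of -1.50 and -1.23 were -0.20 and -0.33 without it. Map3k11 stood at -2.81 without knockdown B, and there it passed limma. Dpf2, a subunit of chromatin remodelling complexes, stood at -0.74 (SE 0.39).

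Of the other Platr transcripts, 10 of 31 names were in the table and 8 were tested. None passed limma (0 of 8), and 1 was higher at an unadjusted limma p under 0.05, against 0.967% of all tested loci. Both knockdown libraries lay above both controls in 1 (12.5%) and below in 2 (25%), against 15% and 16.9% of all tested loci, and the median log2 fold change was -0.29. Platr21 was the one above. It had 15.2 and 12.6 FPKM in knockdown A and B, against 8.24 and 4.78 FPKM in control A and B, a log2 fold change of 1.02 (SE 0.37, limma adjusted p = 0.918). Platr22 was listed at 0 in knockdown A and had 2.35 FPKM in knockdown B, against 3.40 and 5.80 FPKM in control A and B. Kis2, listed as Platr24 in older names and sharing its row with the microRNA Mir106a, had 10.6 and 8.22 FPKM in knockdown A and B, against 22.1 and 13.8 FPKM in control A and B. The median turned to 0.25 without knockdown A and was -0.83 without knockdown B, so the direction of this list rested on knockdown A. It was 0.0051 among loci with a mean of 5 FPKM or more and -0.0090 after quantile normalization.

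Of the other long noncoding RNAs and RNA enzyme components looked for, 30 of 42 names were in the table and 22 were tested. None passed limma (0 of 22, and 0 at an unadjusted p under 0.05), with 4 above (18.2%) and 2 below both controls (9.09%), against 15% and 16.9% of all tested loci, and a median of -0.035. The largest difference was in the row of Mirg, a transcript of the Dlk1-Dio3 imprinted cluster that shares its row with 3 microRNAs. It had 52.3 and 14.6 FPKM in knockdown A and B, against 333 and 23.8 FPKM in control A and B. Its log2 fold change of -1.66 rested on control A, and was 0.21 without it. Ftx and Firre, both from the X chromosome, stood at -0.70 (SE 0.60) and -0.68 (0.61), and Firre at 0.084 without knockdown A.

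Protein partners of Neat1 were described next. All 24 paraspeckle proteins were tested and none passed limma (0 of 24, and 0 at an unadjusted p under 0.05), 12 with positive and 12 with negative log2 fold changes and a median of 0.0068. In 2 of them (8.33%) both knockdown libraries lay above both controls and in 4 (16.7%) below, against 15% and 16.9% of all tested loci. The core paraspeckle proteins Nono, Sfpq and Pspc1 had log2 fold changes of 0.14, 0.051 and 0.22 (SEs 0.21, 0.27 and 0.24). Sfpq turned to -0.25 without knockdown B. The largest differences were in Taf15, an RNA-binding protein, at -0.81 (SE 0.63), Nudt21, a subunit of a cleavage factor of messenger RNA 3′ ends, at -0.73 (0.42), and Rbm7, a subunit of an adaptor of the nuclear exosome, at 0.55 (0.30). Taf15 had 6.21 and 24.0 FPKM in knockdown A and B, against 30.3 and 16.8 FPKM in control A and B, and stood at 0.085 without knockdown A.

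The list of nuclear speckle proteins and Malat1 processing had 19 tested genes. None passed limma (0 of 19), and 1 was higher at an unadjusted limma p under 0.05, against 0.967% of all tested loci. Above both controls were 4 (21.1%) and below both 1 (5.26%), against 15% and 16.9% of all tested loci, and the median was 0.058. The gene with the unadjusted limma p under 0.05 was Mettl16, a methyltransferase that binds the Malat1 triple helix. It had 53.4 and 46 FPKM in knockdown A and B, against 25.1 and 36.6 FPKM in control A and B, a log2 fold change of 0.69 (SE 0.28, limma adjusted p = 0.918). Rnps1 and Srsf7, both splicing factors, stood at 0.36 and 0.35. Son and Srrm2, which form the core of speckles, stood at -0.22 and -0.20 (SEs 0.22 and 0.37), and Srrm2 turned to 0.096 without control A and 0.22 without knockdown A. The enzymes that cut the Malat1 3′ end, named for that role after their values were seen, include RNase P, whose RNA Rpph1 had 66790 and 56381 FPKM in knockdown A and B, against 59282 and 50466 FPKM in control A and B. The tRNA 3′ nuclease Elac2 had 43.0 and 43.5 FPKM in knockdown A and B, against 38.6 and 42.3 FPKM in control A and B.

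Telomerase and shelterin genes had 25 tested members of 26 names, which count 1 gene under an older name as well. None passed limma (0 of 25, and 0 at an unadjusted p under 0.05), 10 with positive and 15 with negative log2 fold changes and a median of -0.12. Groups did not overlap in 3 above and 3 below the controls (12% each), against 15% and 16.9% of all tested loci. Tert, the reverse transcriptase that carries Terc, had 7.03 and 4.23 FPKM in knockdown A and B, against 6.66 and 6.46 FPKM in control A and B. Its log2 fold change was -0.22 (SE 0.39), and 0.087 without knockdown B. Dkc1, the dyskerin that holds Terc stable, stood at 0.28 (SE 0.30), and at -0.11 without control A. Terf1, a shelterin protein on telomere DNA, stood at -0.27 (0.23). The largest differences were in the box H/ACA assembly factors Naf1 at -1.0 (0.69) and Shq1 at 0.73 (0.34), and in Terf2 at -0.78 (0.60). Naf1 had 1.84 FPKM in knockdown A and 11.3 FPKM in knockdown B, against 10.2 and 11.5 FPKM in control A and B, and without knockdown A it stood at 0.052 and Terf2 at 0.083. The median was 0.030 without that library.

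**Figure D5:**
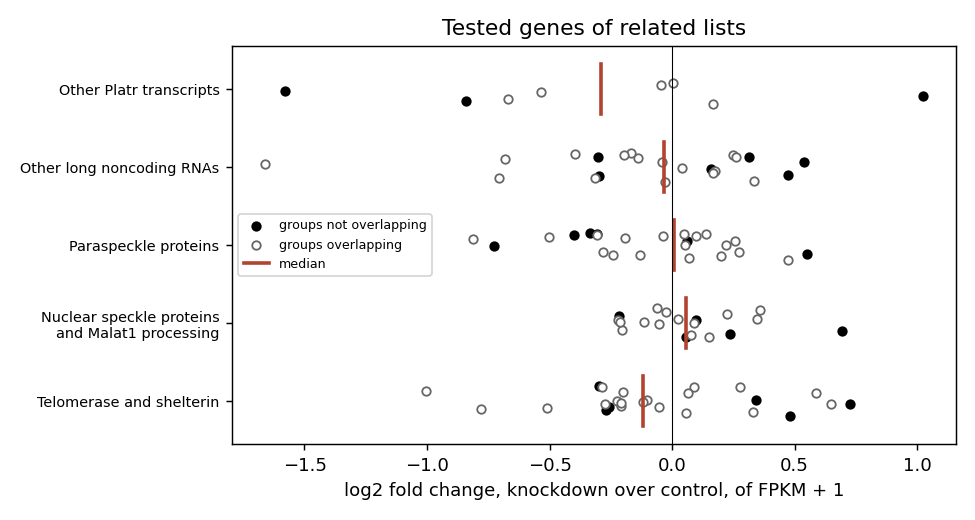
Log2 fold change, knockdown over control, of FPKM + 1 for each tested gene of 5 lists; filled points have groups that do not overlap, which holds for 31.9% of all tested loci, and red lines are medians. The medians lie between -0.29 (other Platr transcripts) and 0.058 (nuclear speckle proteins), and no point passed limma.

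Genes with the most similar pattern over the 4 libraries were found by the root mean square distance between centred log2(FPKM + 1) profiles, as a description. Nearest to Platr14 were Tpgs1, F2 and Nsmaf, at distances of 0.13, 0.14 and 0.15. Nearest to Zbtb11os1 were Tmem86b at 0.08, Ccdc159 at 0.19 and Chga at 0.21. Pfn2, Rlim and Ubr4 were nearest to Malat1 (0.02, 0.03 and 0.03), and Fam107b, Slc25a44 and Tle3 to Neat1 (0.08, 0.09 and 0.11). Cstb, Larp1 and Tsc2 were nearest to Tug1 (0.01, 0.02 and 0.02), and Mlst8, Fbxl6 and Rc3h1 to Terc (0.01, 0.02 and 0.02). The distance is not scaled by how much a profile varies, so these distances do not rank the members. The SD of the profile was 0.13 for Terc, 0.27 for Tug1 and 0.40 for Malat1. It was 0.53 for Platr14, 0.75 for Neat1 and 0.86 for Zbtb11os1. Among the 6 themselves Malat1 and Tug1 were closest, at 0.18, and Zbtb11os1 and Neat1 farthest apart, at 1.34.

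Markers of other cell types summed to less than the stem cell markers, though some single markers were not low. The endoderm marker Lamb1 stood at 22.4 to 26.8 FPKM over the libraries and the trophoblast marker Tfap2c at 20.5 to 28.6 FPKM. The median of all tested loci was 12.3 FPKM. The 9 fibroblast markers summed to 3.91 and 2.66 FPKM in knockdown A and B, against 10.1 and 3.72 FPKM in control A and B, with Lum at 0 in all 4 libraries. Of the 3 that were tested loci, 0 passed limma. Below both controls were 2 (66.7%) and above both 1 (33.3%), against 16.9% and 15% of all tested loci. The 12 endoderm markers, 6 of them tested, summed to 41.5 and 43.7 FPKM in knockdown A and B, against 67.9 and 68.4 FPKM in control A and B, with Ttr at 0 in all 4 libraries. None of the 6 passed limma, 2 were lower at an unadjusted limma p under 0.05, against 1.49% of all tested loci, and 4 (66.7%) were below both controls, against 16.9%. Those 2 were Cubn, an endocytic receptor of visceral endoderm, with a log2 fold change of -2.34 (SE 0.55, limma adjusted p = 0.918), and Lama1, a laminin chain, with -0.85 (0.28, limma adjusted p = 0.918). The 10 trophoblast markers, 5 of them tested, summed to 37.4 and 53.9 FPKM in knockdown A and B, against 86.5 and 46.3 FPKM in control A and B. Of the 5, 0 passed limma, and 2 (40%) lay below both controls and 1 (20%) above both. Endoderm sums were lower in the libraries in which Platr14 and Zbtb11os1 were higher. Fibroblast and trophoblast sums were highest in control A, as were Malat1, Neat1 and Tug1. Those sums rested on few markers, with Krt18 at 38.5, Krt8 at 20.7 and Acta2 at 6.48 FPKM in control A. In control B these had 12.4, 10.1 and 1.17 FPKM. Of the tested fibroblast and trophoblast markers, Thy1 was also highest in control A, while Tfap2c, Gcm1, Eomes and Pdgfrb were not. The part of other cell types in the values of the noncoding RNAs was not tested. In bulk RNA fewer cells of a type and less RNA per cell cannot be told apart.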

How the data were processed

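RNA was sequenced in 2 knockdown and 2 control libraries of WW6 cells. The tools were Cufflinks and Cuffdiff and the build mm9, per the submitters' processing notes. For the aligner, the versions and the use of strand in counting, the sources used here give nothing. The authors deposited FPKM per locus and library. Loci were named from RefSeq identifiers with GRCm38.p6 tables, used for names, transcript lengths and sequences: 23241 of 23697 loci had 1 symbol. Where a symbol had several rows, the highest mean stood for it.

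Tests covered loci averaging 1 FPKM or more, on log2(FPKM + 1), which understates changes of low genes, with limma 3.58.1 in R 4.3.3 (group alone, eBayes with trend), two-sided, with Benjamini-Hochberg adjustment over 11784 loci and a threshold of 0.05. FPKM carries no totals. Depth was estimated from the steps of low values, of which 81.7% to 83.3% lay within 0.15 of a whole fragment, so fragment numbers are estimates with no interval. The fit was also run on simulated data. No outcome of that run is given here, so nothing is drawn from it about these libraries.

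The members and lists were chosen with earlier results of these data known. Genes named are the 6 members, Kdm5b, neighbouring loci and the 3 most similar profiles per member. Also named are core partners set by name and the 3 largest differences of each list other than the marker lists. Of the marker lists some genes are named, but not all of their 3 largest differences. Rpph1 and Elac2 were added later. A neighbouring locus that the rule names is not reported here. Alternatives were a pseudocount of 0.1, no filter, a filter at 5 FPKM, 2 scalings, eBayes without trend, the replicate letter as a block and each library left out. Tables were made with pandas 2.3.3 and numpy 2.4.6 in Python 3.11.15, and figures with matplotlib 3.10.9.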

Additional observations from a re-analysis of the deposited data

How the results depend on the processing

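Loci called lower numbered 4 as reported, 1 with no filter on low values, 2 with eBayes without trend, and 0 to 119 with 1 library left out; loci called higher numbered 0, and 0 to 15 with 1 library left out. The labels do not say whether the letters A and B pair libraries across the groups. Deviations of same-lettered libraries correlated at -0.07 over 11784 loci and 2 pairs. With 2 libraries per group the 2 pairs mirror each other, so this value cannot decide whether same-lettered libraries shared a culture or batch. With the replicate block 7 loci were called lower, and none of Malat1, Neat1, Tug1 and Terc was called. Zbtb11os1 stood at 2.00 with a pseudocount of 0.1. Malat1 ranged from -0.68 to 0.27, Neat1 from -1.28 to 0.63 and Terc from -0.087 to 0.19 with 1 library left out, with both signs; under the settings that kept all libraries none of the 4 genes other than Platr14 and Zbtb11os1 changed sign or was called, and Malat1 stood at -0.11 after quantile normalization. List medians with 1 library left out ran from -0.83 to 0.25 for other Platr transcripts, 0.023 to 0.13 for speckle genes and -0.083 to 0.030 for telomerase genes. The Platr median was -0.87 with a pseudocount of 0.1, and that of the genes near the 6 loci -0.31 with no filter. Over 47 genes of the lists and neighbouring loci, 17 values changed sign, each with 1 library left out: Cstf3 (-0.73 to 0.057), Dkc1 (-0.11 to 0.66), Firre (-1.45 to 0.084), Mirg (-3.54 to 0.21), Naf1 (-2.06 to 0.052), Pcnp (-0.12 to 0.16), Sfpq (-0.25 to 0.36), Smtn (-0.18 to 0.45), Srrm2 (-0.63 to 0.22), Taf15 (-1.71 to 0.085), Terf2 (-1.64 to 0.083), Tert (-0.53 to 0.087) and Zbtb11 (-0.35 to 0.50). Map3k11 passed the threshold without knockdown B. Loci past 2-fold with groups not overlapping numbered 162 higher and 459 lower, 68 and 161 with the filter at 5 FPKM, 270 higher with a pseudocount of 0.1, 233 higher and 266 lower after quantile normalization, and 137 to 805 higher and 187 to 1803 lower with 1 library left out. A lone library was taken to vary like the other group. The cause of these changes was not tested. Depth limits Zbtb11os1 most, with an estimated 11.6 fragments in control A.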
